A study of Mus musculus with 12 samples.

Results

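Macrophages of the dermis take up debris, microbes and dying cells and remodel the matrix around vessels and hair follicles. Their survival depends on the receptor encoded by Csf1r, and a perivascular subset is known for the mannose receptor, the haemoglobin scavenger receptor CD163 and the hyaluronan receptor LYVE1. Described here are 10 genes of such cells, Adgre1, Csf1r, Cd68, Mrc1, Cd163, Lyve1, C1qa, C1qb, C1qc and Arg1, which were picked as known macrophage genes and matched by symbol, and all 10 were found among the 21247 genes of the count table.

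RNA-seq of periocular skin biopsies was compared between 4 ft/ft and 4 ft/ftMyD88-/- mice, all given as 6 weeks old and on a BALB/c background. All 8 mice are ft/ft, that is, filaggrin-deficient through a natural point mutation in Flg, which encodes a barrier protein of the outer epidermis, and are free of the ma mutation. The ft/ftMyD88-/- mice also lack MyD88, the adaptor of toll-like and IL-1 family receptors, in every cell and not only in macrophages. Samples of 4 WT mice are labelled too but were not used here, and no level below is set against normal skin.

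Libraries held 15802957 to 29255129 counts. Levels are CPM (counts relative to library size, with edgeR's TMM factors), and each of 20454 genes was tested by edgeR's quasi-likelihood method with Benjamini-Hochberg adjustment, called at 0.05. Labels do not say whether mice shared litters or cages, so p-values measure the spread between these libraries. Myd88 was at 30.7 ± 4.74 CPM in ft/ft against 41.2 ± 7.29 in ft/ftMyD88-/- (SD, n = 4 each, edgeR adjusted p = 0.0484, lost in 7 of 15 alternatives, all but ft/ft replicate 2 and ft/ftMyD88-/- replicate 3 among the libraries left out, with a p of up to 0.1355), and counts summed over a gene cannot show a deletion of part of it. Although the series describes female mice, Xist was at 49.4 ± 13.3 CPM in ft/ftMyD88-/- and had at most 1 count in any ft/ft library, while Ddx3y, on the Y chromosome, averaged 65.0 ± 8.97 CPM in ft/ft libraries against 0.147 ± 0.225 in the others. Genotype and sex therefore cannot be told apart in any comparison below. Among the 10 genes, ft/ftMyD88-/- replicate 2 held the highest level of its group in all but Adgre1 and Csf1r, and ft/ft replicate 1 the lowest of its group in all but Arg1. Values without 1 of these libraries are given below for some results of the 10 genes, and other results may also have moved.

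Of the 10 macrophage genes, C1qa, which encodes the A chain of complement C1q, was the 1 that rose in ft/ftMyD88-/- skin, and none fell by edgeR, DESeq2 or limma voom. At an unadjusted edgeR p under 0.05, 2 were higher, C1qa and Lyve1, and 0 lower, beside 7551 of 20454 genes at that threshold, 3793 of them lower. Across all genes tested 10.9% were called higher and 12.3% lower after adjustment, 23.3% in all. The median log2 fold change (ft/ftMyD88-/- over ft/ft) of the 10 genes was 0.19, beside 0.01 for all genes, and without ft/ftMyD88-/- replicate 2 it was 0.05. The pan-macrophage genes Csf1r, Adgre1 and Cd68 differed by less than the spread between libraries. Lyve1 was the only member whose libraries did not overlap between the groups, whereas 26.7% of all genes did not overlap, 12.5% being higher and 14.2% lower in ft/ftMyD88-/-, and its adjusted p stood just above the threshold.

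**Figure D1:**
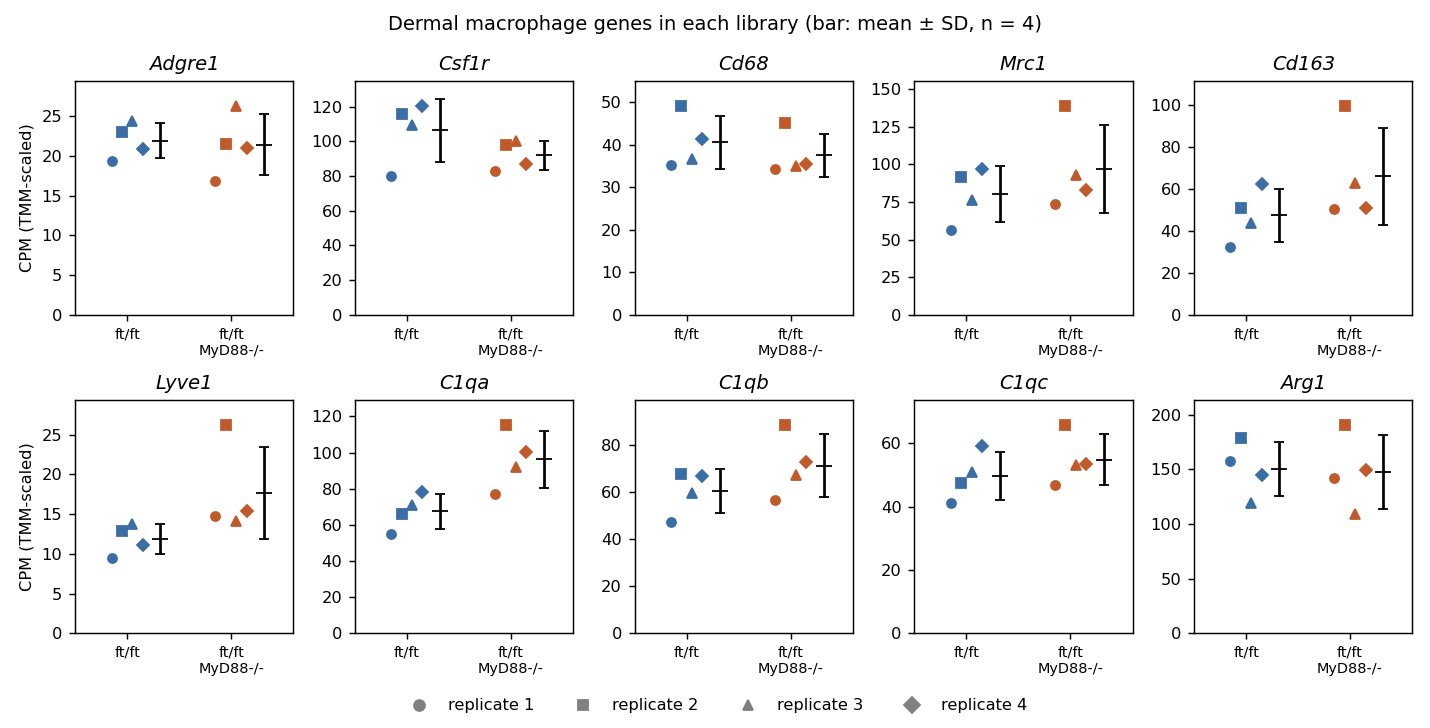
CPM (vertical axes, from 0) of the 10 genes in the 4 ft/ft (blue) and 4 ft/ftMyD88-/- (orange) libraries, 1 marker shape per replicate number, with the mean ± SD beside each group. Lyve1 and C1qa sit higher in ft/ftMyD88-/-, with no overlap for Lyve1, and replicate 2 (square) tops the ft/ftMyD88-/- group in most panels.

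**Figure D2:**
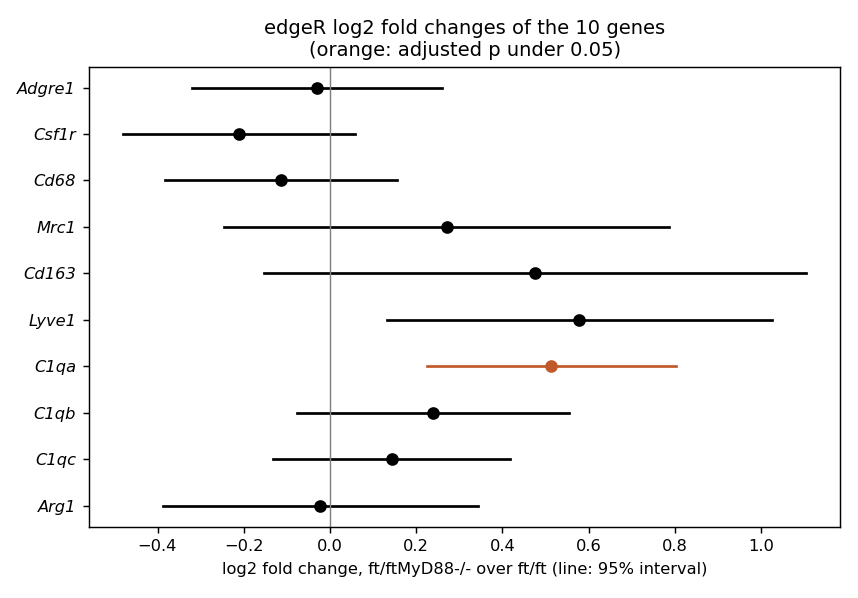
edgeR log2 fold change of ft/ftMyD88-/- over ft/ft for each gene (point) with its 95% interval (line), C1qa in orange as the only one called at an adjusted p of 0.05. The intervals of C1qa and Lyve1 lie above 0 and the other 8 span it.

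Levels of different genes were set side by side per length of exon, which holds for reads spread over whole transcripts, as the study's methods describe, and not for the probe-based protocol that the labels name. On that scale Arg1 was the highest of the 10 genes in ft/ft skin at 101.6 ± 16.7 CPM per kilobase of exon (SD, n = 4) and Lyve1 the lowest at 4.09 ± 0.654. Between them stood C1qa at 64.8, C1qb at 55.6, C1qc at 41.3, Cd68 at 32.3, Csf1r at 21.8, Mrc1 at 14.96, Cd163 at 10.6 and Adgre1 at 6.77 CPM per kilobase. The ranges of neighbours in this order overlapped over the ft/ft libraries, except between Arg1 and C1qa, Cd68 and Csf1r, and Adgre1 and Lyve1.

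None of the 3 pan-macrophage genes among the 10, Csf1r, Adgre1 and Cd68, was called. In bulk skin fewer cells of a type and less RNA per cell cannot be told apart, which holds for every level given. Csf1r encodes the receptor for the growth factors CSF1 and IL-34 and lies on chromosome 18 (GRCm38.p6, 61105572 to 61131139). Its CPM was 80.1, 116, 109.6 and 120.3 in ft/ft replicates 1 to 4 and 83.1, 97.7, 100.2 and 86.8 in ft/ftMyD88-/-. All 4 ft/ftMyD88-/- values lay within the ft/ft range, which replicate 1 alone stretched downwards. The log2 fold change was -0.21 (95% interval -0.48 to 0.06, edgeR adjusted p = 0.241). Without ft/ft replicate 1 it was -0.33 and passed (edgeR adjusted p = 0.0315). Csf1r overlaps Hmgxb3 on the opposite strand, and the library kit in the study's methods does not mark strand, so reads of the pair may be mixed.

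Adgre1 encodes F4/80, the adhesion receptor by which mouse macrophages are usually recognised (chromosome 17, 57358581 to 57483529). It was at 19.4, 23.0, 24.4 and 20.9 CPM in ft/ft and 16.9, 21.6, 26.3 and 21.0 in ft/ftMyD88-/-. The lowest and the highest of the 8 libraries were both ft/ftMyD88-/-, and the log2 fold change was -0.03 (95% interval -0.32 to 0.26, edgeR adjusted p = 0.896). Cd68, a lysosomal membrane glycoprotein of phagocytes (chromosome 11, 69664213 to 69666170), was at 35.3, 49.1, 36.7 and 41.3 CPM in ft/ft and 34.4, 45.2, 34.9 and 35.6 in ft/ftMyD88-/-. Replicate 2 was the highest library in both groups, and the groups overlapped (log2 fold change -0.11, 95% interval -0.38 to 0.15, edgeR adjusted p = 0.547). The signs of Adgre1 and Cd68 turned positive when counts were scaled by library size alone, which also raised the median of all genes to 0.19.

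Mrc1, Cd163 and Lyve1, genes of perivascular and other resident macrophages, had larger SDs relative to their means in ft/ftMyD88-/- than the pan-macrophage genes, and none was called. Mrc1 encodes the mannose receptor CD206 (chromosome 2, 14229414 to 14332023). Its CPM was 56.2, 91.9, 76.4 and 97.0 in ft/ft and 73.5, 139, 92.7 and 82.7 in ft/ftMyD88-/-. Only ft/ftMyD88-/- replicate 2 exceeded the ft/ft range, and the log2 fold change was 0.27 (95% interval -0.25 to 0.79, edgeR adjusted p = 0.434) and 0.05 without that library. Cd163 encodes a receptor that clears haemoglobin bound to haptoglobin (chromosome 6, 124304636 to 124330529). It was at 32.4, 50.8, 43.9 and 62.4 CPM in ft/ft and 50.4, 99.4, 62.9 and 50.9 in ft/ftMyD88-/-. The groups overlapped, with replicate 2 again far above the others (log2 fold change 0.48, 95% interval -0.15 to 1.10, edgeR adjusted p = 0.25), and without it the log2 fold change was 0.21.

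Lyve1 encodes a hyaluronan receptor carried by perivascular macrophages and also by lymphatic endothelium (chromosome 7, 110850607 to 110862953). It stood at 9.52, 12.9, 13.8 and 11.1 CPM in ft/ft and 14.7, 26.3, 14.1 and 15.4 in ft/ftMyD88-/-. Every ft/ftMyD88-/- library exceeded every ft/ft library, although replicate 3 of both groups were close. The log2 fold change was 0.58 (95% interval 0.13 to 1.02) with an edgeR adjusted p of 0.0612, which ran from 0.0204 to 0.144 over 15 alternatives and passed in 4 of them. Without ft/ftMyD88-/- replicate 2 the log2 fold change was 0.32. Of 8 lymphatic endothelium markers none rose and 2 fell, Sema3d from 103 ± 10.6 to 31.4 ± 11.9 CPM and Reln from 16.5 ± 3.87 to 9.14 ± 2.06 (edgeR adjusted p = 0.00117 and 0.00923). For the defining marker Prox1 the mean in ft/ftMyD88-/- was 4.52 ± 1.28 CPM (log2 fold change -0.15, edgeR adjusted p = 0.647), and the 8 markers summed to between 287.9 and 318.0 CPM in the ft/ft libraries against between 170.4 and 256.7 in ft/ftMyD88-/-. Most of that difference was Sema3d, while Pdpn, named after its values were seen, was at 29.3 ± 4.68 CPM in ft/ft against 44.0 ± 14.0 (edgeR adjusted p = 0.0783). The part of these cells in the Lyve1 level was not tested.

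Patterns across libraries were then compared between genes. With each gene's log2 CPM centred on its own mean over the 8 libraries, Mrc1 was the closest of 14673 genes to Cd163, at a root mean square difference of 0.127. For Mrc1 itself the closest were Stard8 (0.103), P2ry6 (0.117) and Stab1 (0.121), a scavenger receptor of the same kind of macrophage, followed by Cd163 and then C1qb. Mrc1 in turn ranked 31 among the genes closest to C1qb. The difference between C1qb and C1qc was 0.115, at which C1qc ranked 7 for C1qb and C1qb ranked 18 for C1qc. For Lyve1 the closest were Lrrc32, Acot5 and Pcsk5, and Cd163 was not among its 3 nearest. These distances describe 8 libraries that share the group difference and their depth, and carry no test.

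**Figure D3:**
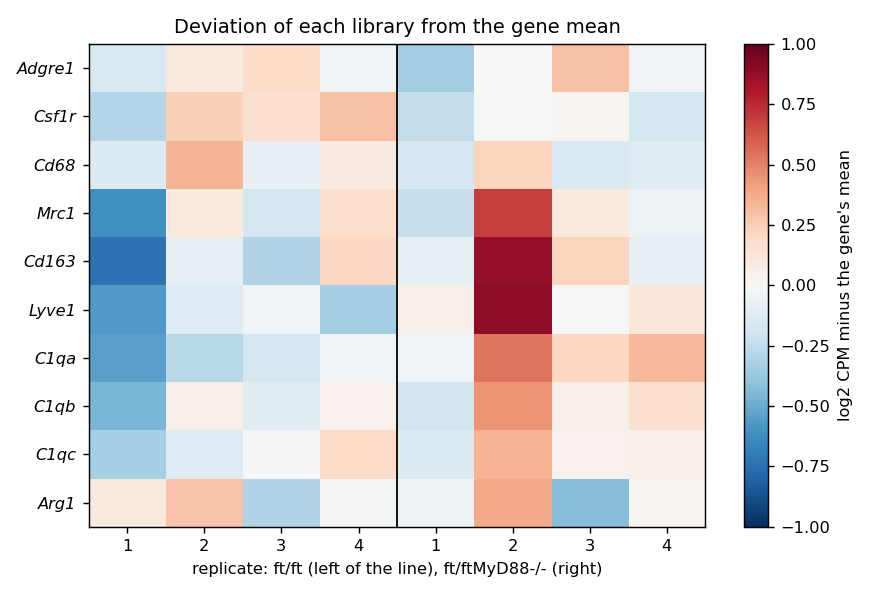
Log2 CPM of each gene in each library minus the gene's mean over the 8 libraries (colour, from -1 to 1), with ft/ft left and ft/ftMyD88-/- right of the line. Mrc1, Cd163 and Lyve1 are lowest or near lowest in ft/ft replicate 1 and highest in ft/ftMyD88-/- replicate 2.

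The sequences upstream of Mrc1, Cd163 and C1qb are shown because Cd163 and C1qb were among the 5 genes closest to Mrc1 in pattern. Each is the 250 bases before a RefSeq transcript start on GRCm38.p6, written 5′ to 3′ on the strand of the gene, with GAGGAA, the core bound by the macrophage factor PU.1, or its reverse complement TTCCTC in capitals. Mrc1 lies on the plus strand at chr2:14229164-14229413, Cd163 on the plus strand at chr6:124304401-124304650 and C1qb on the minus strand at chr4:136886201-136886450.
Mrc1: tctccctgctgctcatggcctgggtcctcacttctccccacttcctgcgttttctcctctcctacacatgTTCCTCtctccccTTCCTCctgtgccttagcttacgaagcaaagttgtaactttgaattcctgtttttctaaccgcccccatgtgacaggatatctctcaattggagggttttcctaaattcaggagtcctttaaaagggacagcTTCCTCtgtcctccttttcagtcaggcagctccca
Cd163: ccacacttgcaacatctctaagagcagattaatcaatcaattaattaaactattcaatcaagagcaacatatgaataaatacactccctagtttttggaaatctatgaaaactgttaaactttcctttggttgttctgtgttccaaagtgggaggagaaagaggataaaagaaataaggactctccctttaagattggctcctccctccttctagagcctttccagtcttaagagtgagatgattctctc
C1qb: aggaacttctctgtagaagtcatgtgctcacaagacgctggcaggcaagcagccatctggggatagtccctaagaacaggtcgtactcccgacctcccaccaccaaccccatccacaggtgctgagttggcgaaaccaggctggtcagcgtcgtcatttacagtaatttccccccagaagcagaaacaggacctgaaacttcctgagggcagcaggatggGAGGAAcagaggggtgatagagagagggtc
The Mrc1 window held 3 copies of the core, C1qb 1 and Cd163 none, while 23.3% of 32851 RefSeq windows of that length held at least 1 and 3.54% held 2 or more. Windows were at hand for 5 of the 10 genes, and those of Cd68 and C1qc held 1 copy each. A copy of these letters is a description of the window and not a bound site.

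C1qa, C1qb and C1qc encode the A, B and C chains that assemble into C1q, the recognition part of the first complement component, which in most tissues is made by macrophages. The genes lie side by side on the minus strand of chromosome 4, with C1qb at 136880126 to 136886200, C1qc at 136889801 to 136892936 and C1qa at 136895916 to 136898844. C1qa CPM was 54.9, 65.9, 70.8 and 78.1 in ft/ft and 77.3, 115, 92.1 and 100.1 in ft/ftMyD88-/-. Replicate 1 of ft/ftMyD88-/- just overlapped the top of ft/ft, and the other 3 exceeded it. C1qa was 1.43-fold higher in ft/ftMyD88-/- (log2 fold change 0.51, standard error 0.133, 95% interval 0.22 to 0.80, edgeR adjusted p = 0.0158). It was called under all 15 alternatives, with a log2 fold change from 0.42 to 0.69 and an adjusted p from 0.00346 to 0.0481.

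C1qb was at 47.4, 67.8, 59.9 and 67.0 CPM in ft/ft and 56.8, 88.9, 67.3 and 72.7 in ft/ftMyD88-/-. Replicates 2 and 4 of ft/ftMyD88-/- exceeded the ft/ft range, and the log2 fold change was 0.24 (95% interval -0.08 to 0.56, edgeR adjusted p = 0.257). C1qc was at 41.0, 47.5, 51.1 and 59.1 CPM in ft/ft and 46.8, 65.9, 53.2 and 53.5 in ft/ftMyD88-/-. Replicate 2 alone exceeded the ft/ft range (log2 fold change 0.14, 95% interval -0.13 to 0.42, edgeR adjusted p = 0.448). Without ft/ftMyD88-/- replicate 2 the log2 fold change was 0.12 for C1qb and 0.04 for C1qc. The chains thus differed unequally, which was noticed after their values were seen and is given with no test. The log2 ratio of C1qa to C1qc counts was 0.40 to 0.47 in ft/ft and 0.73 to 0.90 in ft/ftMyD88-/-, without overlap. That of C1qa to C1qb was -0.04 to 0.24 and 0.38 to 0.46, also without overlap, and that of C1qb to C1qc overlapped at 0.18 to 0.51 and 0.28 to 0.44.

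C1q works with the proteases C1r and C1s. Of 12 partners and components of the classical pathway 3 rose and none fell. C1s1, a gene of the C1s protease, rose from 43.4 ± 8.26 to 69.0 ± 11.4 CPM (SD, n = 4 each, edgeR adjusted p = 0.00884), as did the related C1s2 from 3.76 ± 0.986 to 6.01 ± 0.497 (edgeR adjusted p = 0.024). C1qbp, a largely mitochondrial protein that binds C1q, rose from 65.6 ± 0.545 to 80.1 ± 8.87 CPM (edgeR adjusted p = 0.0345). The call of C1qbp was lost in 7 of 15 alternatives (adjusted p up to 0.08), among them those without any 1 of the ft/ft libraries and without ft/ftMyD88-/- replicate 2 or 4, and that of C1s2 in 3, without ft/ft replicate 2 or ft/ftMyD88-/- replicate 2 or 4 (adjusted p up to 0.0593). C1ra was at 54.3 ± 13.1 and 76.7 ± 17.0 (edgeR adjusted p = 0.0913). The median log2 fold change of the 12 was -0.01.

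Arg1 encodes arginase 1, which turns arginine into ornithine and urea and is a known marker of alternatively activated macrophages, although hepatocytes and keratinocytes can also make it. It lies on chromosome 10 (24915207 to 24927470). Its CPM was 157, 178, 119 and 145 in ft/ft and 142, 191, 109 and 149.6 in ft/ftMyD88-/-. The groups overlapped, with replicate 2 highest and replicate 3 lowest in each (log2 fold change -0.02, 95% interval -0.39 to 0.34, edgeR adjusted p = 0.938). Hmox1, the haem-degrading enzyme, was the gene with the closest pattern, at a root mean square difference of 0.0836 on the log2 scale. The liver marker Alb, named after its values were seen, averaged 1.48 ± 0.93 CPM in ft/ft against 0.592 ± 0.305 in ft/ftMyD88-/- (edgeR adjusted p = 0.0767). Other liver markers went the other way. Cps1 rose from 1.89 ± 0.258 to 5.63 ± 2.12 CPM (edgeR adjusted p = 0.00225), and Ttr was not called (log2 fold change 0.84, edgeR adjusted p = 0.551). How much of the Arg1 count came from macrophages was not tested.

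Of 12 other genes of arginine use 4 rose, Sat1, Slc7a1, Odc1 and Srm, and none fell, with log2 fold changes from 0.49 to 0.72. The call of Slc7a1 was lost in 7 of 15 alternatives (adjusted p up to 0.104), among them those without ft/ft replicate 1, 3 or 4 and without ft/ftMyD88-/- replicate 1 or 4. Odc1, which makes putrescine from ornithine, rose from 84.1 ± 7.8 to 120.1 ± 17.8 CPM (edgeR adjusted p = 0.00716). Arg2, the mitochondrial arginase, was at 3.22 ± 0.659 and 4.88 ± 1.13 CPM (edgeR adjusted p = 0.0541), and Nos2, the inducible nitric oxide synthase that competes for arginine, at 1.31 ± 0.245 and 1.31 ± 0.222 (edgeR adjusted p = 0.976).

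Ratios of counts within a library do not depend on how libraries are scaled, and 8 were compared with two-sided exact permutation tests, for which 4 libraries against 4 cannot give a p below 0.0286. Set against Csf1r, Mrc1, Cd163, Lyve1 and summed C1q lay higher in every ft/ftMyD88-/- library than in any ft/ft library. These ratios share Csf1r as their denominator. What share of all genes would separate in this way against Csf1r was not computed, and in CPM 26.7% of all genes did not overlap. Ratios of other resident macrophage genes were not computed either. The log2 ratio of Mrc1 to Csf1r was -0.51, -0.34, -0.52 and -0.31 in ft/ft and -0.18, 0.51, -0.11 and -0.07 in ft/ftMyD88-/-, a difference of means of 0.46. For Cd163 the difference was 0.66, with ft/ft from -1.32 to -0.95 and ft/ftMyD88-/- from -0.77 to 0.02. For Lyve1 it was 0.74, and for the sum of the 3 C1q genes 0.52, with ft/ft from 0.64 to 0.84 and ft/ftMyD88-/- from 1.08 to 1.47. Each of these 4 reached the smallest exact permutation p, 0.0286, which became 0.0571 after adjustment over the 8 ratios and so did not pass. Without ft/ftMyD88-/- replicate 2 the differences were 0.30 for Mrc1, 0.47 for Cd163, 0.56 for Lyve1 and 0.45 for C1q. The groups did not overlap for these 4 with any 1 library left out.

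The other 4 ratios overlapped between the groups. The log2 ratio to Csf1r differed by 0.15 for Adgre1, 0.09 for Cd68 and 0.16 for Arg1, and that of Lyve1 to Mrc1 by 0.28 (exact permutation p = 0.314, 0.543, 0.629 and 0.171). With Adgre1 in place of Csf1r as the denominator, the differences for Mrc1, Cd163, Lyve1 and C1q were 0.30, 0.50, 0.58 and 0.37, and none reached an exact permutation p of 0.05 (0.286, 0.143, 0.0857 and 0.0571).

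**Figure D4:**
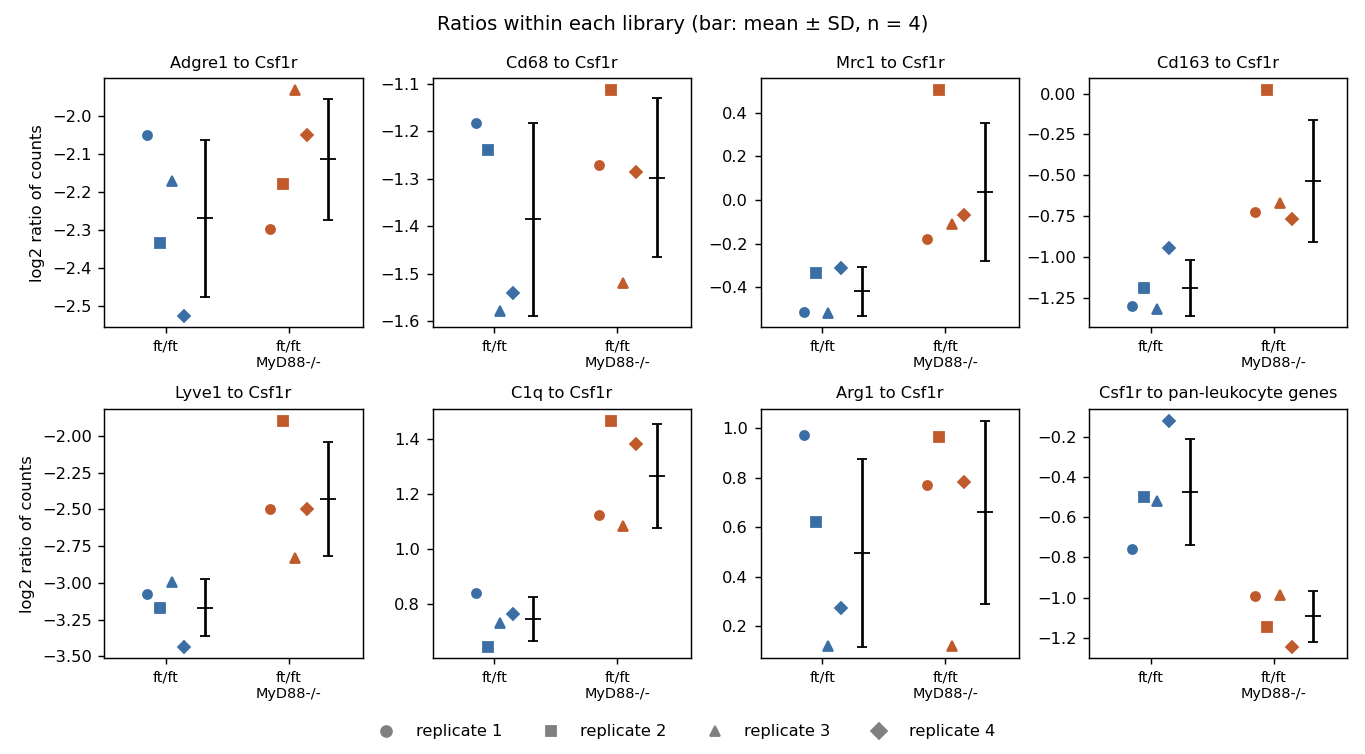
Log2 ratio of counts within each library (vertical axes, each with its own range, not from 0), ft/ft in blue and ft/ftMyD88-/- in orange, with the mean ± SD of 4 libraries beside each group. Mrc1, Cd163, Lyve1 and summed C1q lie higher against Csf1r in every ft/ftMyD88-/- library, and Csf1r lies lower against the pan-leukocyte genes.

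Csf1r was also set against leukocyte genes as a whole. The log2 ratio of Csf1r to the summed counts of 6 pan-leukocyte genes was -0.76, -0.50, -0.52 and -0.12 in ft/ft and -0.99, -1.15, -0.99 and -1.24 in ft/ftMyD88-/-. All ft/ftMyD88-/- libraries lay below all ft/ft libraries, by 0.62 on average (exact permutation p = 0.0286, not among the 8 ratios adjusted together). That p is the smallest possible and is unadjusted. The 4 ratios above with the same p did not pass after adjustment, so this ratio is not firmer than they are. With Ptprc, which encodes CD45, as the denominator the difference was -0.89. Of the 6 pan-leukocyte genes 4 rose, Ptprc from 22.2 ± 1.85 to 36.1 ± 4.55 CPM (edgeR adjusted p = 0.00112).

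Of 19 further pan-macrophage and myeloid genes 9 rose and none fell, with a median log2 fold change of 0.57. Ms4a7, a membrane protein of macrophages, rose from 3.86 ± 0.329 to 11.6 ± 4.42 CPM (SD, n = 4 each, edgeR adjusted p = 0.00124). Aif1, which encodes the macrophage protein IBA1, rose from 3.85 ± 0.188 to 9.23 ± 3.11 (edgeR adjusted p = 0.00239). Msr1, a scavenger receptor, rose from 2.59 ± 1.08 to 6.75 ± 3.07 (edgeR adjusted p = 0.0221), a call lost without ft/ft replicate 1, 3 or 4 or without ft/ftMyD88-/- replicate 4 (adjusted p from 0.0524 to 0.0657). Spi1, the gene of PU.1, was at 17.3 ± 1.69 and 23.4 ± 6.8 CPM (edgeR adjusted p = 0.0862).

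Monocyte genes included 6 that rose among 12, and none fell. The call of 1 of these, Cd177, a gene better known from neutrophils, was lost in 6 of 15 alternatives (adjusted p up to 0.13). Ccr2, the chemokine receptor by which monocytes leave the bone marrow and enter tissue, rose from 19.7 ± 1.84 to 32.9 ± 7.51 CPM (log2 fold change 0.74, edgeR adjusted p = 0.00525). Ly6c2 was at 1.36 ± 0.186 and 1.22 ± 0.468 (edgeR adjusted p = 0.773). Of the CSF1R ligands, Il34, made largely by keratinocytes, fell from 30.6 ± 1.25 to 21.1 ± 3.23 CPM (log2 fold change -0.53, edgeR adjusted p = 0.00595). Csf1 was at 40.9 ± 6.03 and 37.6 ± 6.44 (edgeR adjusted p = 0.572). Ccl2, Ccl7 and Ccl12, chemokine ligands of CCR2, rose with log2 fold changes of 1.95, 1.93 and 2.47 from 0.465 to 1.82 CPM in ft/ft.

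Among 19 other genes of resident dermal macrophages 3 rose and 1 fell. Cd209f, a lectin receptor, rose from 6.04 ± 1.72 to 13.2 ± 2.3 CPM (edgeR adjusted p = 0.00219). Ednrb, an endothelin receptor also found in melanocytes and vessels, rose with a log2 fold change of 0.84, and Cbr2, a carbonyl reductase, fell from 717.6 ± 185.5 to 368.8 ± 46.8 CPM (edgeR adjusted p = 0.00214 and 0.00318). Folr2 was at 1.26 ± 0.366 and 0.987 ± 0.322 CPM and Mertk, a receptor for dying cells, at 9.99 ± 1.56 and 10.8 ± 1.4 (edgeR adjusted p = 0.46 and 0.587).

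Of 13 measured genes linked to alternative activation 1 rose, Il4ra, and none fell, with a median log2 fold change of 0.10. The call of Il4ra (edgeR adjusted p = 0.0354) was lost without any 1 of the ft/ft libraries and without ft/ftMyD88-/- replicate 1 or 4 (adjusted p from 0.0514 to 0.0919). Of 14 linked to classical activation 8 rose and none fell, with a median of 0.95. Ptgs2, which encodes cyclooxygenase-2, rose from 1.98 ± 0.435 to 7.55 ± 3.68 CPM (edgeR adjusted p = 0.00335). Keratinocytes and other leukocytes also express genes of both lists, and their share was not tested. Scavenger and efferocytosis receptors counted 1 gene higher and 4 lower of 15, iron handling genes 1 and 1 of 9, and lysosome genes 0 and 3 of 12.

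Markers of other cells moved between the groups as well, and their part in the levels above was not tested. All 8 T cell markers rose, as did 4 of 9 dendritic cell markers, with 1 lower, 2 of 7 mast cell markers, and 1 of 6 neutrophil markers. Over 15 alternatives the neutrophil call, Csf3r, was lost in 7 (adjusted p up to 0.12), and that of the lower dendritic marker, Itgax, in 9 (up to 0.169). Those of the mast cell marker Hdc and the T cell marker Cd3d were lost in 5 and 3. Langerhans cell markers counted 2 higher and 2 lower of 6, and Cd207, their defining gene, rose from 22.9 ± 1.47 to 35.2 ± 8.14 CPM (edgeR adjusted p = 0.00984). The lower 2, Mfge8 and Cd74, lost their calls in 7 and 4 of 15 alternatives. S100a8, listed with the neutrophil markers but also made by keratinocytes, was at 242.5 ± 116 CPM in ft/ftMyD88-/- and 25.8 ± 41.8 in ft/ft (edgeR adjusted p = 0.126). Blood endothelium markers counted 1 higher and 2 lower of 7. The higher 1, Egfl7, lost its call in 7 of 15 alternatives, and the lower 2, Tie1 and Kdr, in 4 and 1. Lower in ft/ftMyD88-/- were 2 of 7 fibroblast, 3 of 6 basal and differentiated keratinocyte, 5 of 8 sebocyte and 5 of 6 skeletal muscle markers, with none higher. Adipocyte markers had no call among 6, hyperproliferative keratinocyte markers 1 higher of 6, and liver markers 1 higher, Cps1, of 3 tested.

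**Figure D5:**
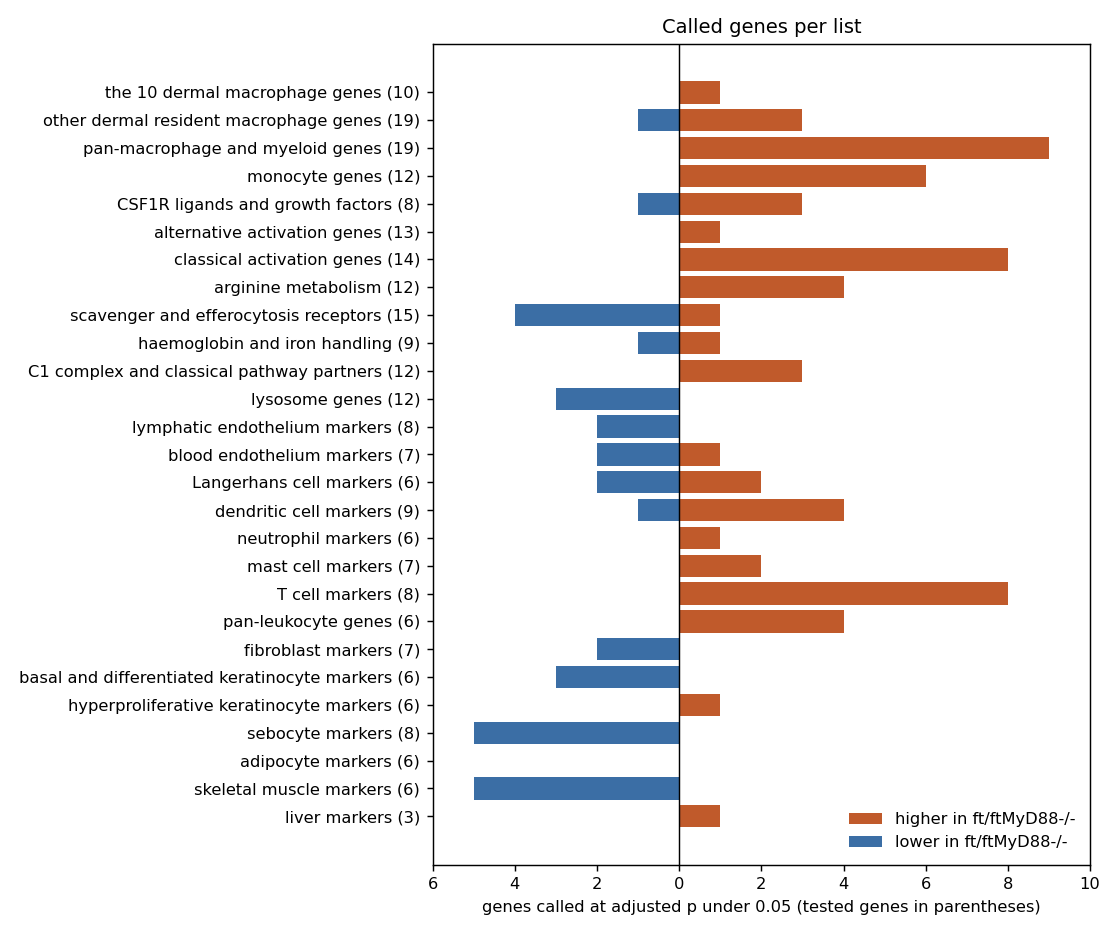
Number of genes of each list called higher (orange, to the right) or lower (blue, to the left) in ft/ftMyD88-/- at an edgeR adjusted p under 0.05, with the number of genes tested in parentheses. The 10 dermal macrophage genes show 1 call, higher, where 10.9% of all genes tested were called higher and 12.3% lower. The other resident dermal macrophage genes show 3 higher and 1 lower of 19. Further pan-macrophage and myeloid genes show 9 higher of 19 and monocyte genes 6 of 12.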

How the data were processed

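Periocular skin of 4 ft/ft and 4 ft/ftMyD88-/- mice was used; of 12 samples in the labels the 4 WT samples were not analysed here. The authors deposited raw counts per gene without normalization. Per the methods of the study, polyA-selected TruSeq libraries were read as 50-cycle single ends, mapped onto GRCm38.p6 (HISAT, then tophat2 against genes), and HTSeq was run at default settings. Versions and annotation release are not given in the sources used here. The labels instead name total RNA, a fixed-tissue protocol and, in the submitters' processing notes, Cell Ranger, and which applies could not be told from the counts.

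Columns were matched to samples by library name, and groups were taken from the sample titles. A sum of at least 10 counts was required, which left 20454 genes for edgeR 4.0.16 under R 4.3.3 (TMM, glmQLFit with robust = TRUE, glmQLFTest, no covariate, two-sided). The 95% intervals come from the log2 fold change, its standard error (log2 fold change over the square root of F) and the test's degrees of freedom. Ratios within libraries used exact permutation tests in scipy 1.17.1. Exon lengths were unions over GENCODE M21 basic transcripts on GRCm38, and coordinates and upstream windows came from RefSeq on GRCm38.p6. Likeness of pattern was the root mean square difference of centred log2 CPM (prior count 2) among genes with a mean of at least 1 CPM.

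Replicate libraries differed by more than counting noise (chi-square over its degrees of freedom was 16.3 or more), so none was merged. Over all genes, deviations of same-numbered libraries correlated from -0.146 to 0.0251. These values show no pairing by number, but they cannot exclude a shared litter or cage. Alternatives were DESeq2 1.42.0, limma voom 3.58.1, other scalings and filters, a replicate block, each library left out, and stricter thresholds. Named genes are the 10 members, the best known gene of each list and up to 3 called genes in each direction per list. From the longer lists some of these are given by their counts. A gene that the rule names is not reported here. The members, the 28 other lists and the tests were chosen with earlier results of these data known. Of the listed genes, Csf2, Retnla, Ly6g, Retnlg, Otc and Serpina1c were not found by symbol in the count table, so their lists were counted without them.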

Additional observations from a re-analysis of the deposited data

Results flagged for a closer look

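By Dixon's test at 95%, the values that stood apart in their group of 4 were all those of ft/ftMyD88-/- replicate 2. Its Lyve1 level was 26.3 CPM, with a gap to the next library of 0.895 of the group's range, and its Cd68 level was 45.2 CPM with a gap of 0.888. Its log2 ratio of Mrc1 to Csf1r was 0.51 (gap 0.845) and that of Cd163 to Csf1r was 0.024 (gap 0.875). In all 38 groups were examined this way, and chance marks about 1 in 20.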

How the results depend on the processing

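The number of the 10 genes called higher was 1 and became 2 with DESeq2, with library size only and with the replicate block, Lyve1 being added each time, and 0 at an adjusted p under 0.01 or with a log2 fold change of at least 1. With each library left out it ran from 1 to 2, and the number called lower from 0 to 1 (Csf1r without ft/ft replicate 1). The block changed no other call of these 10 genes and ended those of C1qbp and Slc7a1 (adjusted p = 0.0708 and 0.0976), while Spi1, Arg2 and C1ra passed (0.0474, 0.0358 and 0.0239). Over all genes, same-numbered libraries did not deviate together. The median log2 fold change was 0.37 with library size only and ran from 0.05 (0.046, without ft/ftMyD88-/- replicate 2) to 0.28 with libraries left out. Members without overlap went from 1 to 2 with library size only and with RLE factors, and from 1 to 2 with libraries left out. Against Adgre1, the differences of Mrc1 (0.30) and C1q (0.37) had an exact permutation p above 0.05 before any adjustment. Among the 234 other list genes tested, 62 were higher and 32 lower, against 91 and 19 with library size only, and the number higher ran from 41 to 67 with libraries left out. Library size only also moved the share of all called genes that were higher from 47.0% to 77.8% (2239 higher and 2525 lower against 4638 and 1326).

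With library size only the log2 fold changes were 0.15 (0.149) for Adgre1, 0.063 for Cd68, 0.155 for Arg1, 0.059 for Csf1, 0.048 for Ly6c2 and 0.035 for Prox1. With libraries left out, Adgre1 ran from -0.131 to 0.073, Arg1 from -0.165 to 0.115, Ly6c2 from -0.406 to 0.06, Nos2 from -0.099 to 0.122 and Prox1 from -0.309 to 0.017. Cd68 against Adgre1 was -0.067. The cause was not tested.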
